A study of Mus musculus with 20 samples.

Results

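The 39 autophagy genes described here were taken by symbol from the deposited table of 39017 genes, and all 39 were found in it. They code for the kinase that starts autophagy, the lipid kinase complex, the conjugation enzymes, the LC3 and GABARAP proteins, cargo receptors, and the lysosome with its transcription factors. Of the 39, 34 had a mean of at least 1 FPKM (fragments per kilobase of exon, scaled to the library total) over the 18 libraries and entered the tests with 11339 genes in all. The 5 that did not were *Wipi1*, *Atg4c*, *Gabarapl1*, *Tfeb* and *Tfe3*, whose levels are given without a test.

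The libraries came from the bone marrow of mice that had received IM-induced leukemias, which are T lineage acute lymphoblastic leukemias (T-ALL) started by insertional mutagenesis with the retrovirus MOL4070LTR. Leukemias JW14, JW81, 8633, 78A, 73M, 73A, 20M, 5C and 2M were analysed, each with 2 libraries, 1 in a column named VEH and 1 in a column named DEX. The labels give the strain of every sample as C57Bl/6 x 129Sv/Jae F1 and name no treatment, age or genotype, so VEH and DEX are used below as the column names only. The leukemias were passed on in recipients of the same cross, and their genotypes were not used here. Each leukemia is the progeny of a single diseased mouse, so the leukemias, and not the libraries, are the independent units.

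Autophagy is the route by which a cell wraps part of its cytoplasm in a double membrane and delivers it to the lysosome. The ULK1 kinase complex starts the process when the growth kinase mTORC1 is quiet or the energy sensor AMPK is active, the class III PI3-kinase complex marks the growing membrane with a phospholipid, and a ubiquitin-like conjugation system attaches LC3 and GABARAP proteins to it. Cargo receptors such as p62 tether ubiquitinated material to LC3, and lysosomal enzymes digest what arrives. Glucocorticoids and nutrient stress are known to act on this route in lymphoid cells, and much of its control lies in protein modification that RNA levels do not show.

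Library totals ran from 8226528 to 201222288 counts, with a median of 24451898. Nuclear ribosomal RNA genes had between 21.6 and 64.05 CPM (counts scaled to the library total) in 5 libraries, of which 4 were DEX libraries (JW81, JW14, 20M, 73M) and 1 was a VEH library (5C), and at most 0.00497 CPM in the other 13. The T lineage markers had a mean level of 5.07 ± 0.55 (log2(FPKM + 1), SD, n = 9 leukemias), and none of the 12 was at 0 in any library. Their summed level was 525 to 1315 FPKM in the VEH and 548 to 1183 FPKM in the DEX libraries. The marrow also held other cells, since the 12 neutrophil markers summed to between 44.2 and 4653 FPKM in the VEH and between 20.7 and 2755 FPKM in the DEX libraries, JW14 holding the lowest and 73A the highest sums. In such bulk samples, fewer cells of a type and less RNA per cell cannot be told apart.

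The autophagy genes were broadly expressed in the leukemias. In all 9 leukemias, 32 of the 39 genes reached 1 FPKM and 8 reached 10 FPKM. *Lamp1*, a glycoprotein of the lysosomal membrane, had the highest level, 53.5 ± 4.20 FPKM (SD, n = 9 leukemias, each the mean of its 2 libraries). *Gabarap*, which is attached to the autophagosome membrane, followed with 24.9 ± 3.19 FPKM, and the cargo receptor *Sqstm1*, which codes for p62, with 24.1 ± 4.38 FPKM.

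**Figure D1:**
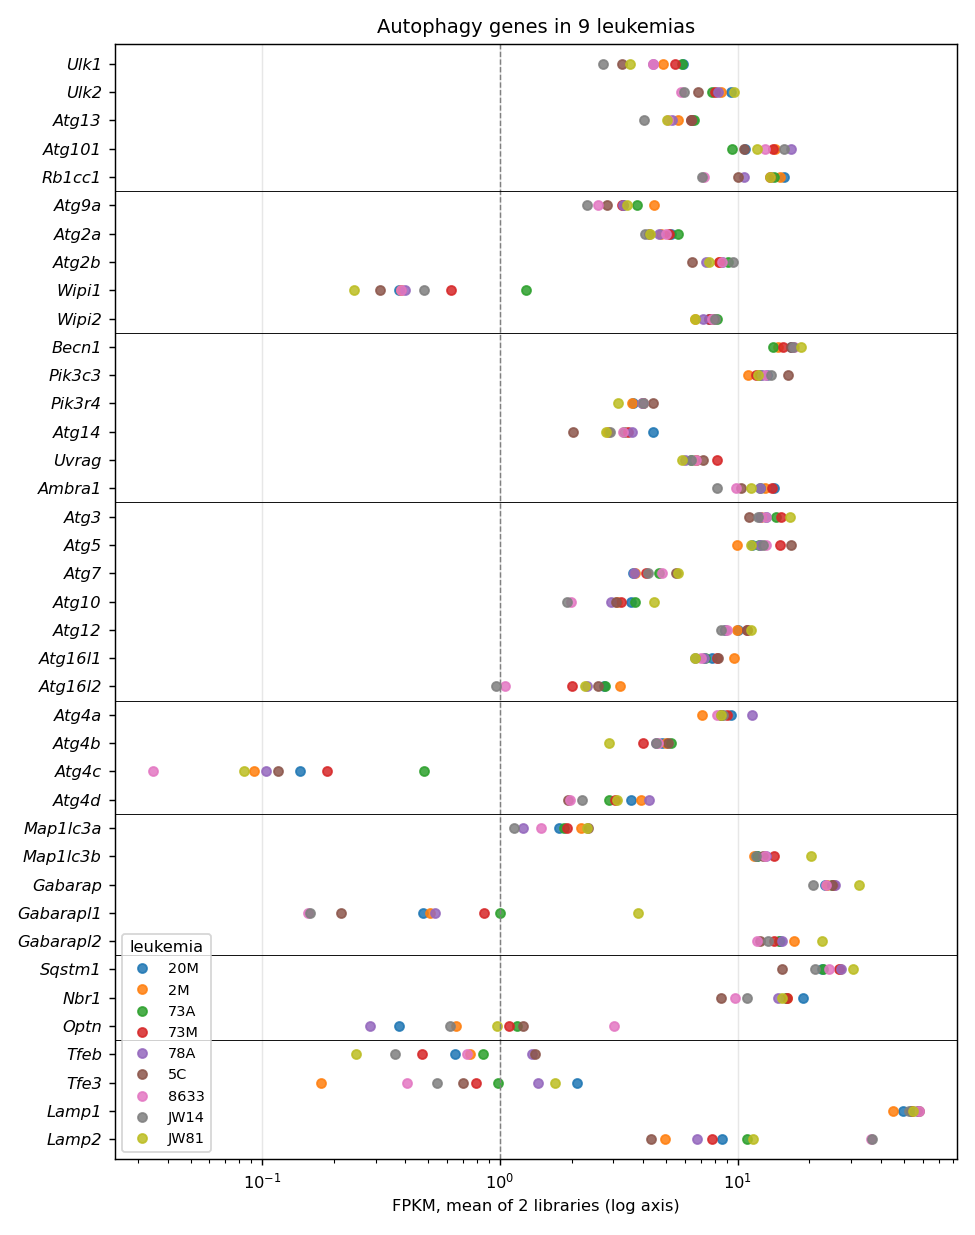
FPKM of the 39 autophagy genes on a log axis, each point the mean of the VEH and DEX libraries of a leukemia, with horizontal lines between the role groups and a dashed line at 1 FPKM. *Lamp1* lies farthest to the right, at 44.9 to 57.8 FPKM, and *Lamp2*, *Optn* and the genes below the dashed line are the most spread out, while *Atg4c* in JW14, at 0, cannot be drawn.

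In the initiation complex, *Atg101* had 12.95 ± 2.46 FPKM and *Rb1cc1*, the scaffold FIP200, 11.9 ± 3.28 FPKM, above the kinase genes *Ulk2* at 7.77 ± 1.37 FPKM and *Ulk1* at 4.47 ± 1.14 FPKM. Among the genes for membrane supply, *Atg2b* (8.21 ± 0.951 FPKM) and *Wipi2* (7.47 ± 0.573 FPKM) stood above the lipid scramblase gene *Atg9a* (3.24 ± 0.636 FPKM). *Wipi2*, a reader of the phospholipid mark, was above its relative *Wipi1*, which was at or below 1.29 FPKM, in every leukemia.

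The subunits of the class III PI3-kinase complex were unequal. *Becn1* (16.4 ± 1.38 FPKM) and the catalytic subunit gene *Pik3c3* (12.96 ± 1.49 FPKM) were above the alternative subunit genes *Uvrag* (6.65 ± 0.694 FPKM) and *Atg14* (3.18 ± 0.657 FPKM), which direct the complex to late or early steps of the route. In the conjugation system, *Atg3*, *Atg5* and *Atg12* lay between 9.81 and 13.4 FPKM on average, whereas *Atg16l2*, the less studied relative of *Atg16l1*, had 2.21 ± 0.763 FPKM. Of the proteases that prepare LC3 for attachment, *Atg4a* had 8.80 ± 1.19 FPKM and *Atg4c* 0.138 ± 0.139 FPKM. *Atg4c* had 0 counts in both libraries of JW14, where 3 counts would have given 0.0237 and 0.109 FPKM.

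The transcription factor genes *Tfeb* and *Tfe3*, which drive lysosomal genes, were low, with 0.758 ± 0.405 and 0.984 ± 0.640 FPKM. *Tfe3* ran from 0.177 FPKM in 2M to 2.10 FPKM in 20M, and *Tfeb* from 0.248 FPKM in JW81 to 1.40 FPKM in 5C.

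Averaged into a single score, log2(FPKM + 1) of the 39 genes had a mean of 2.80 ± 0.078 (SD, n = 9). In order, the score was 2.66 in JW14, 2.72 in 5C, 2.75 in 8633, 2.78 in 2M, 2.80 in 78A, 2.85 in 73M and in 20M, 2.88 in 73A and 2.89 in JW81. JW14 and JW81 thus marked the ends of the range. The libraries of a leukemia differed in this score by at most 0.062, in 2M, so that neighbours in the order cannot be separated.

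Differences between leukemias were then tested for each gene with edgeR, which asks whether the 9 leukemias differ by more than their 2 libraries do. An adjusted p under 0.05 was reached by 82.5% of the 11339 genes, and by 27 of the 34 autophagy genes (79.4%), so the share was near that of genes in general. An adjusted p beside a ratio of leukemias belongs to this test over all 9, not to the pair. The 7 that did not pass were *Atg2a*, *Wipi2*, *Pik3r4*, *Uvrag*, *Map1lc3a*, *Map1lc3b* and *Lamp1*.

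By size, most of these differences were small. The highest leukemia was less than 2-fold above the lowest for 24 of the 34 genes (70.6%), against 43.1% of all genes tested, and at least 4-fold above it for 2 of them (5.88%), against 23.9% of all genes tested. The median ratio was 1.72 for the autophagy genes and 2.18 for all genes. JW14 was the lowest leukemia for 12 of the 34 genes (35.3%), against 17.5% of all genes tested, and JW81 the highest for 10 (29.4%), against 10.4%. The 6 genes with the largest ratios were *Optn*, *Lamp2*, *Atg16l2*, *Atg10*, *Nbr1* and *Rb1cc1*.

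*Lamp2* and *Optn* carried the 2 widest differences, and the 250 bases before their RefSeq start sites (build GRCm38.p6) are shown here as the sequence beside those levels. Capitals mark CCAAT or its reverse complement ATTGG, and AGAACA or its reverse complement TGTTCT, which is the core of a glucocorticoid receptor site. The *Lamp2* stretch is chrX:38456461-38456710 and the *Optn* stretch chr2:5064118-5064367, both on the minus strand.
Lamp2: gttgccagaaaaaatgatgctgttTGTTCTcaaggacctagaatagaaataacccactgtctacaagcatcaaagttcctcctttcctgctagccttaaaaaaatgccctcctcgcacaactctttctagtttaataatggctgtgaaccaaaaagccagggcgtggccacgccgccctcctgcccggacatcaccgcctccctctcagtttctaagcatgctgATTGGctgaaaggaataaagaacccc
Optn: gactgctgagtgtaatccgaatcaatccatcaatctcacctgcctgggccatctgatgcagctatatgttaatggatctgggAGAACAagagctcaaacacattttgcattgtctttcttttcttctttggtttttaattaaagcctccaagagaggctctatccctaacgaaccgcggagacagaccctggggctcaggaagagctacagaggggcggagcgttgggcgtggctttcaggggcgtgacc

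*Lamp2*, the second main glycoprotein of the lysosomal membrane and the receptor of chaperone-mediated autophagy, was high in JW14 and 8633. In JW14 it had 33.5 FPKM in the VEH and 39.95 FPKM in the DEX library, and in 8633 it had 31.9 and 40.9 FPKM. The 14 libraries of the other 7 leukemias lay between 4.18 FPKM, in 5C, and 12.6 FPKM, in JW81, so that the ranges did not overlap. The highest leukemia was 8.53-fold above the lowest, with an adjusted p of 1.603e-08 for the differences between leukemias (edgeR). *Lamp1* did not share this pattern, with 57.8 FPKM in 8633, 52.2 FPKM in JW14 and 44.9 FPKM or more in every leukemia.

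In JW14 and 8633, the macrophage and neutrophil markers were at their lowest. The macrophage markers had levels of 1.02 and 1.10, below 1.31 to 2.22 in the other leukemias, and the neutrophil markers 1.13 and 3.62, below 4.51 to 6.40 (log2(FPKM + 1)). The erythroid and B lineage markers were lowest in 8633, at 0.302 and 0.0840, whereas in JW14 they had 0.835 and 0.119, above those of 5C (0.669 and 0.0998). The part of these cells in the *Lamp2* levels was not tested.

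*Optn*, which codes for the receptor optineurin that brings mitochondria and bacteria to LC3, was highest in 8633. That leukemia had 3.17 FPKM in the VEH and 2.85 FPKM in the DEX library, while the other 16 libraries lay between 0.221 and 1.61 FPKM. The lowest leukemia, 78A, had 0.221 and 0.347 FPKM. The ratio between these leukemias was 10.6, and over all 9 the adjusted p was 1.32e-04 (edgeR), the 2 libraries being far apart in 73M, with 1.61 and 0.562 FPKM, and in 73A, with 1.504 and 0.860 FPKM.

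The next in size was *Atg16l2*, and here JW14 and 8633 were the low ones. They had 0.913 and 1.01 FPKM, and 1.22 and 0.885 FPKM, in the VEH and DEX libraries. All other libraries had 1.52 to 3.44 FPKM, and the adjusted p for the differences between leukemias was 2.51e-05 (edgeR).

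The same 2 leukemias were also lowest in *Atg10*, the enzyme that conjugates ATG12 to ATG5. Its level was 1.91 FPKM in JW14, 1.98 FPKM in 8633, 2.94 to 3.69 FPKM in 6 others and 4.46 FPKM in JW81 (ratio 2.34, adjusted p = 0.00280, edgeR). In *Rb1cc1*, JW14 had 7.06 FPKM and 8633 had 7.22 FPKM, 5C and 78A had 9.97 and 10.6 FPKM, and the other 5 had 13.7 to 15.6 FPKM (ratio 2.21, adjusted p = 0.00375, edgeR). *Nbr1*, a cargo receptor related to p62, was lowest in 5C with 8.52 FPKM, followed by 9.72 FPKM in 8633 and 10.97 FPKM in JW14, and reached 14.7 to 18.8 FPKM in the rest (ratio 2.21, adjusted p = 6.22e-05, edgeR).

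**Figure D2:**
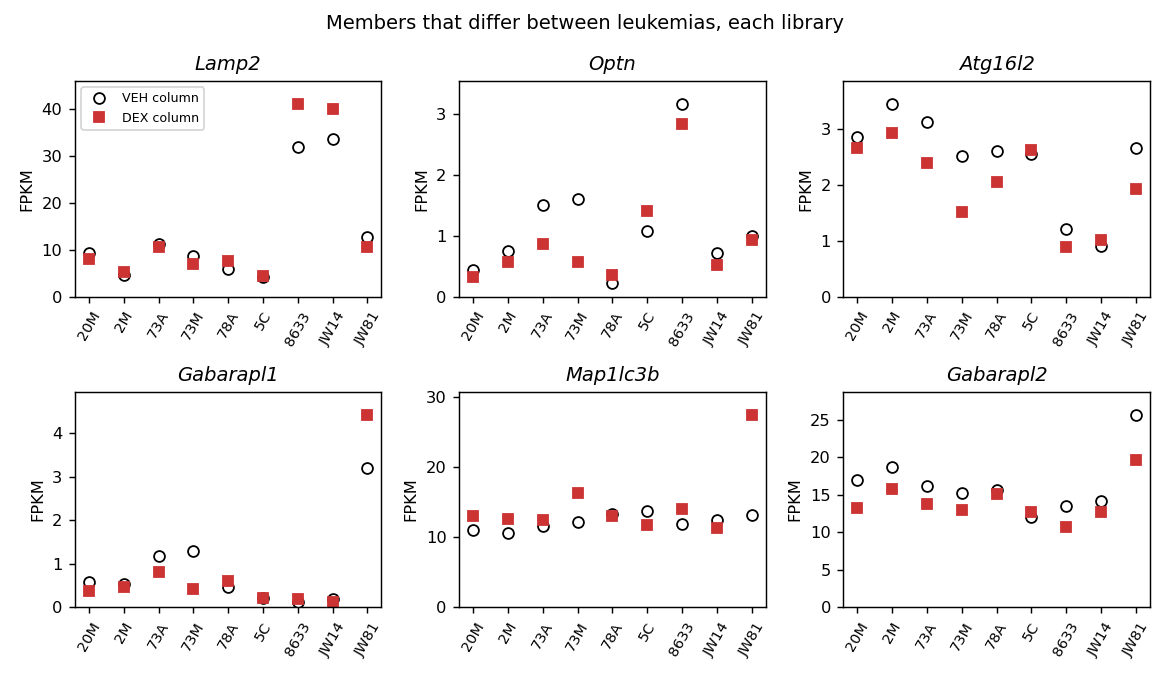
FPKM in every library for 6 autophagy genes, with open circles for VEH and filled squares for DEX libraries of the 9 leukemias. *Lamp2* is high and *Atg16l2* low in 8633 and JW14, while *Gabarapl1* and *Gabarapl2* are highest in JW81, at 3.82 and 22.6 FPKM.

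JW81 was highest in 4 of the 5 genes of the LC3 and GABARAP family, the ubiquitin-like proteins that coat the autophagosome. The mean level of the 5 genes was 3.59 in JW81 and at most 2.99 in the other leukemias (log2(FPKM + 1)). *Gabarapl1* had 3.21 FPKM in the VEH and 4.43 FPKM in the DEX library of JW81 and at most 1.28 FPKM in the other 16 libraries. *Gabarapl2*, with 25.7 and 19.6 FPKM, and *Gabarap*, with 33.3 and 31.6 FPKM, were higher in both JW81 libraries than in any other library, where they reached 18.7 and 28.1 FPKM. These levels differed between leukemias with an adjusted p of 2.07e-04 for *Gabarapl2* and 0.0178 for *Gabarap* (edgeR). *Map1lc3b*, which codes for LC3B, had 27.5 FPKM in the DEX library of JW81 against 13.2 FPKM in its VEH library, and 10.7 to 16.4 FPKM elsewhere. *Map1lc3b* did not pass the test between leukemias (adjusted p = 0.0932, edgeR). Nor did *Map1lc3a* (adjusted p = 0.196, edgeR), with 2.33 FPKM in JW81 and 2.34 FPKM in 5C, the highest.

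The DEX and VEH libraries of each leukemia were next compared, with the leukemia as a block. At an adjusted p of 0.05, 13% of the 11339 genes differed, with 6.22% of all genes higher and 6.79% lower in DEX. Of the 34 autophagy genes, 2 rose, *Uvrag* and *Atg9a* (5.88%), and 0 fell. By the unadjusted p, 3 were lower in DEX (*Gabarapl2*, *Atg16l2* and *Atg2b*), against 15.7% of all genes, and 9 were higher (26.5%), against 15.8%. DESeq2 called 6, with 4 up and 2 down, where it called 19.1% of all genes. In all 9 leukemias, 2 autophagy genes had more FPKM in DEX, against 1.77% of all genes, and 0 had less, against 4.93%.

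The estimated changes leaned upward without being large. The log2 fold change of DEX minus VEH was above 0 for 25 of the 34 genes (73.5%), against 50.9% of all genes tested, with a median of 0.08 against 0.0039. Scaled by the library total instead, 21 of the 34 were above 0 (61.8%), against 39.9% of all genes. The median size of the change regardless of sign was 0.11 for the autophagy genes and 0.13 for all genes on the log2 scale, and the range was -0.27 to 0.42. The score over the 39 genes changed by 0.017 ± 0.035 (SD over 9 leukemias). It was above 0 in 5 leukemias and below 0 in 4, with 2M (0.062) and 5C (-0.047) at the ends. The same mean over all genes tested changed by -0.024. With TPM, in which transcript levels of a library share a fixed sum, the score changed by -0.028 and the mean over all genes by -0.070. With the median in place of the mean, the changes were 0.11 and -0.034.

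**Figure D3:**
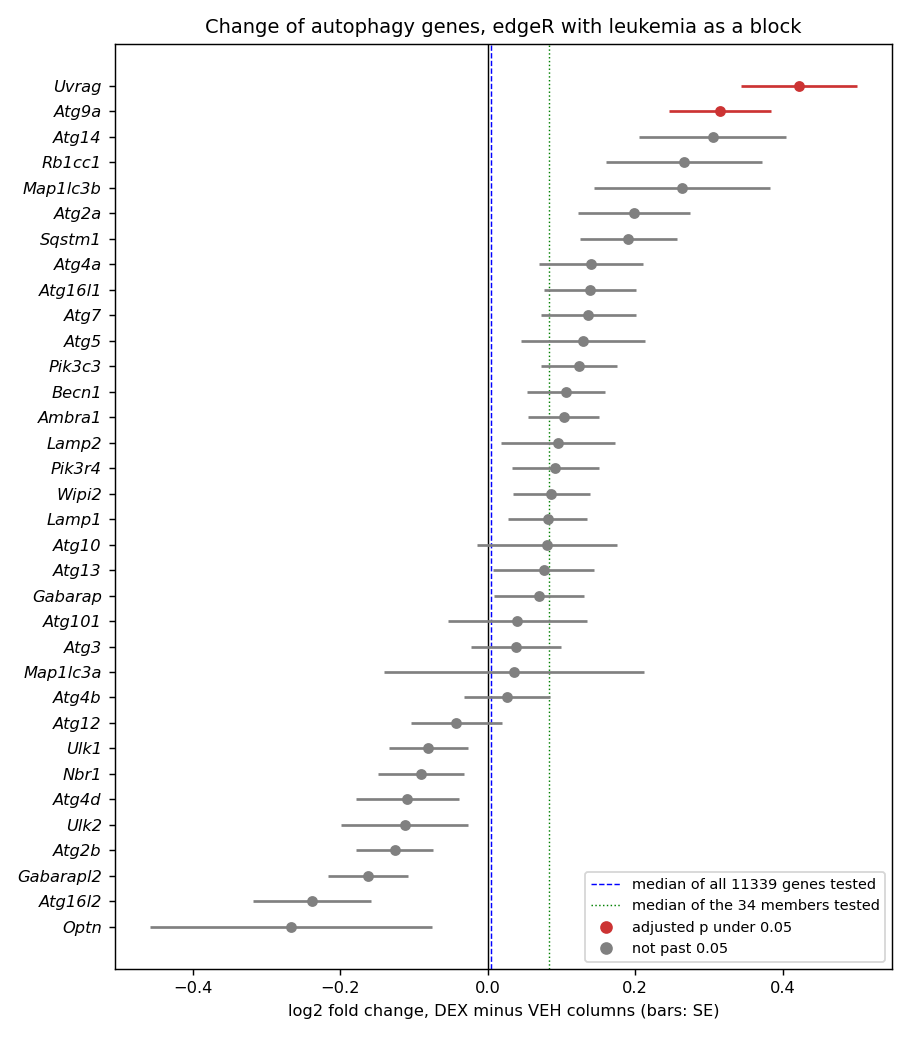
Log2 fold change of DEX minus VEH for the 34 autophagy genes tested, with bars for the standard error from edgeR with leukemia as a block, and vertical lines at the medians of all 11339 genes and of the 34. Values run from -0.27 for *Optn* (-0.12 without 73M) to 0.42 for *Uvrag*, and *Uvrag* and *Atg9a*, in red, are past an adjusted p of 0.05.

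The 2 genes that rose lie at chr7:98885021-99141141 (*Uvrag*) and chr1:75180860-75192196 (*Atg9a*), both on the minus strand of mm10. Their upstream 250 bases by RefSeq (GRCm38.p6, minus strand) are shown, chr7:99141145-99141394 for *Uvrag* and chr1:75192011-75192260 for *Atg9a*. The 2 genes share the call and not the step in each leukemia, as *Uvrag* changed most in 73M and *Atg9a* in 20M. Capitals mark CCAAT and its reverse complement ATTGG, the element bound by the factor NF-Y.
Uvrag: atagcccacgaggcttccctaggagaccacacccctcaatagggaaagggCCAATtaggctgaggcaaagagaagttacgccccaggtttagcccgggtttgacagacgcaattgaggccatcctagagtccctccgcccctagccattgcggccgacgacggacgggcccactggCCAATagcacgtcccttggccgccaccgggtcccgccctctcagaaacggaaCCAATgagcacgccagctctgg
Atg9a: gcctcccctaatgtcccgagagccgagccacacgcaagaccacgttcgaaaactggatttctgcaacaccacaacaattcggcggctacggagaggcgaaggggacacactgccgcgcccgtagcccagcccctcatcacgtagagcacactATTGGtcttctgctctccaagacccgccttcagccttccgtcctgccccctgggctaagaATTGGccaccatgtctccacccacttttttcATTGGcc

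Each of these stretches holds 3 copies of the letters CCAAT, counted on both strands. Of 32851 RefSeq promoters of this length, 2.79% hold 3 or more. The limit of 3 equals the count in the stretches shown, which were chosen because their genes rose in DEX. This share therefore cannot tell whether the copies go with the rise, and such a link was not tested. In *Uvrag* the copies start 200, 74 and 22 bases before the start site, and in *Atg9a*, on the opposite strand, 98, 38 and 7 bases before it. A promoter entry was matched for 33 of the 39 genes, with 39 entries in all, and 4 of these entries hold 3 or more copies. At least 1 copy is in 12 of the 39 entries (30.8%), against 33.9% of all promoters, so by this limit the share was not above that of promoters in general.

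Other motifs were searched in the same entries on both strands. The E-box CACGTG, read by TFEB and TFE3 among others, is in 4 entries, those of *Atg3*, *Atg5*, *Atg7* and *Lamp1*, and in 6.02% of all promoters. AGAACA is in 5 entries (*Atg2b*, *Atg4d*, *Atg5*, *Lamp2* and *Optn*) and in 16.1% of all promoters. The longer CLEAR element (CACGTG with GT before and AC after it), the FOXO letters TGTTTAC and the full glucocorticoid receptor element (AGAACA and TGTTCT with 3 bases between them) are in 0 of the 39 entries, against 0.24%, 3.17% and 0.0091% of all promoters. The E-box lies within the CLEAR element, and AGAACA within the full receptor element, so these searches overlap.

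*Uvrag* codes for a subunit of the class III PI3-kinase complex that acts on autophagosome maturation and endosome traffic. In the VEH libraries it had 5.22 FPKM in JW81, 5.27 in 73A, 5.37 in 78A, 5.50 in JW14, 5.58 in 2M, 5.76 in 73M, 5.94 in 8633, 6.29 in 20M and 7.05 FPKM in 5C. In the DEX libraries it had 6.42 FPKM in JW81, 7.43 in 73A, 6.64 in 78A, 7.18 in JW14, 7.76 in 2M, 10.6 in 73M, 7.38 in 8633, 7.06 in 20M and 7.16 FPKM in 5C. The DEX library was the higher in 9 of 9 leukemias, though the ranges overlapped and the step in 5C was small. The log2 fold change was 0.42 with a standard error of 0.079 and an adjusted p of 0.00788 (edgeR).

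The rise of *Uvrag* was largest in 73M, where the erythroid markers were 2.33 lower and the neutrophil markers 1.18 lower in DEX than in VEH (log2(FPKM + 1)). Without 73A and 73M, the leukemias in which the erythroid markers fell most, its log2 fold change was 0.32 with an adjusted p of 0.0311, where 2.44% of all genes were called (edgeR). With a term for the libraries with ribosomal RNA counts it was 0.37 (adjusted p = 0.0362), and over the 4 leukemias without such a library 0.44 (adjusted p = 0.0292), where 4.1% and 4.19% of all genes were called (edgeR). Over the 5 leukemias with such a library it was 0.40 with an adjusted p of 0.151, in a fit that called 0.132% of all genes and 0 autophagy genes, 5 of which had an unadjusted p under 0.05.

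*Atg9a* codes for the transmembrane protein whose vesicles seed the autophagosome. In the VEH libraries it had 2.13 FPKM in JW14, 2.45 in 8633, 2.56 in 20M, 2.78 in 5C, 2.83 in 73M, 3.10 in 78A, 3.28 in JW81, 3.41 in 73A and 3.93 FPKM in 2M. In the DEX libraries it had 2.51 FPKM in JW14, 2.72 in 8633, 4.01 in 20M, 2.86 in 5C, 3.67 in 73M, 3.46 in 78A, 3.58 in JW81, 4.15 in 73A and 4.96 FPKM in 2M. It too was higher in DEX in 9 of 9 leukemias, with overlapping ranges, and 20M moved most. The log2 fold change was 0.32 with a standard error of 0.069 and an adjusted p of 0.0151 (edgeR).

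The call for *Atg9a* was lost in more of the alternative fits than that for *Uvrag*. Its adjusted p was 0.754 without the leukemia as a block, 0.0669 with the ribosomal RNA term, 0.113 over the 4 leukemias without such a library, 0.16 over the 5 with one, 0.0945 without 73A and 73M and 0.0526 without the filter on low values (6.28% of genes called), with log2 fold changes of 0.26 to 0.34 in these 6 edgeR fits. In the annotation, 31.8% of its exon bases also belong to the overlapping gene *Gm29253* on the same strand, and 17.6% of those of *Uvrag* to the antisense gene *Gm45187*. Neither has counts of its own here, so reads of the partners cannot be told apart.

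**Figure D4:**
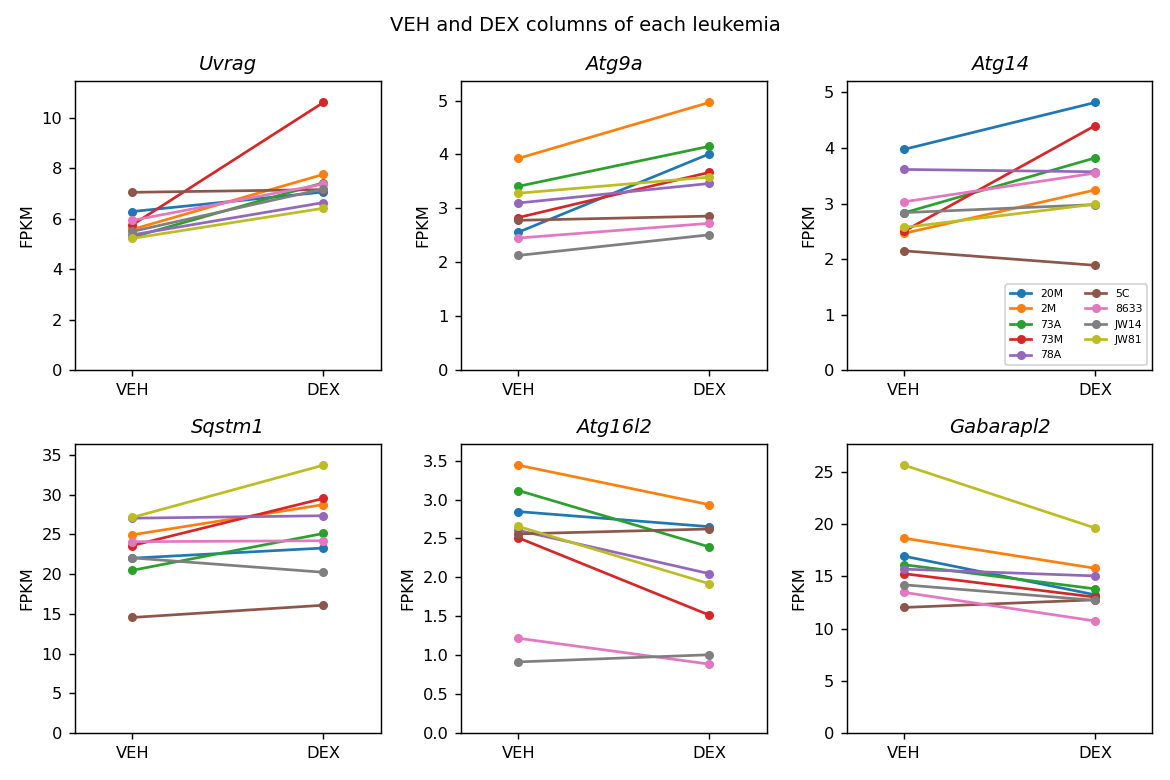
FPKM of 6 autophagy genes in the VEH and DEX libraries, with a line for each of the 9 leukemias and axes from 0. All 9 lines rise for *Uvrag* and *Atg9a*, while *Atg14*, *Sqstm1*, *Atg16l2* and *Gabarapl2* have 1 or 2 lines that run against the rest.

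Among the other members of the class III PI3-kinase complex, none passed the threshold in edgeR. All 6 genes of the group had a log2 fold change above 0, against 50.9% of all genes tested. *Atg14*, the subunit for early autophagosomes, had 0.31 with an adjusted p of 0.0613 (edgeR) and was higher in 7 of 9 leukemias, from 2.15 to 3.98 FPKM in VEH and 1.89 to 4.82 FPKM in DEX. DESeq2 called it higher (adjusted p = 0.0350). *Pik3c3*, *Becn1*, *Ambra1* and *Pik3r4* had changes of 0.12, 0.11, 0.10 and 0.09. Without 73M that of *Becn1* was 0.07, and without 73A that of *Pik3r4* was 0.06. The median over the group was 0.11, against 0.0039 for all genes tested. All 6 stayed above 0 in each of the 18 alternative fits of this comparison, down to 0.020 over the leukemias without a ribosomal RNA library. These fits share libraries, so they are not independent of each other. *Pik3r4* was higher in DEX in 4 of 9 leukemias in FPKM, and in 6 of 9 with the TMM scaling of the edgeR fit. In the score of the group, 7 of 9 leukemias were higher in DEX, by 0.12 ± 0.12 on average (SD, n = 9), with the largest change in 73M, 0.35, and the lowest in 5C, -0.033.

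The other groups held no gene past the threshold in edgeR apart from *Atg9a*. In the initiation complex, *Rb1cc1* had a log2 fold change of 0.27 (adjusted p = 0.112, edgeR, higher in 7 of 9), while *Ulk1* and *Ulk2* had -0.08 and -0.11, and 1 of the 5 genes had an unadjusted p under 0.05, against 31.5% of all genes. *Rb1cc1* moved most in 73A, from 10.1 FPKM in VEH to 18.2 FPKM in DEX. In the membrane group, the lipid transfer genes *Atg2a* and *Atg2b* had opposite signs, 0.20 (adjusted p = 0.0992) and -0.13 (adjusted p = 0.124, edgeR).

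Of the 7 conjugation genes, 5 had a change above 0 and 2 an unadjusted p under 0.05 (28.6%, against 31.5% of all genes). *Atg16l1* had 0.14 (adjusted p = 0.155), or 0.09 without 73M, and *Atg16l2* -0.24 (adjusted p = 0.0672, edgeR). *Atg16l2* was lower in DEX in 7 of 9 leukemias, from 0.913 to 3.44 FPKM in VEH and 0.885 to 2.94 FPKM in DEX, and DESeq2 called it lower (adjusted p = 0.0347). The 3 tested protease genes had changes between -0.11 and 0.14, and 0 of them had an unadjusted p under 0.05, against the same 31.5%.

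Within the LC3 and GABARAP family, *Map1lc3b* had 0.26 (adjusted p = 0.155), or 0.15 without JW81, and *Gabarapl2* -0.16 (adjusted p = 0.0671, edgeR). *Gabarapl2* was lower in DEX in 8 of 9 leukemias, the exception being 5C, and was called lower by DESeq2 (adjusted p = 0.0406). Of the cargo receptors, *Sqstm1* had 0.19 (adjusted p = 0.0719, edgeR), was higher in DEX in 8 of 9 leukemias and was called higher by DESeq2 (adjusted p = 0.0401). The exception was JW14, with 22.0 FPKM in VEH and 20.2 FPKM in DEX. *Nbr1* and *Optn* had -0.09 and -0.27, with standard errors of 0.059 and 0.19, and without 73M that of *Optn* was -0.12. *Lamp1* and *Lamp2* had 0.08 and 0.09, and their adjusted p were 0.315 and 0.415 (edgeR). Without 73M that of *Lamp1* was 0.05, and without 78A that of *Lamp2* was 0.05. Over the leukemias with a ribosomal RNA library, *Lamp2* had -0.04.

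Without 1 or another leukemia, the estimates of 18 of the 34 autophagy genes moved by over 1.5 times, none of them *Uvrag* or *Atg9a*. Such fits also moved the number of autophagy genes called. Without 5C it was 6, with *Atg14*, *Atg9a* and *Uvrag* up and *Atg16l2*, *Atg2b* and *Gabarapl2* down, where 18% of all genes were called. Without JW14, *Sqstm1* was called in addition to *Uvrag* and *Atg9a*, where 11.3% of all genes were called. In each of the other 7 such fits the calls were *Uvrag* and *Atg9a*. Without the leukemia as a block, 0.0706% of all genes and 0 autophagy genes were called, 3 having an unadjusted p under 0.05 (edgeR), and *Uvrag* had an adjusted p of 0.111.

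The markers of cell types were examined in the same comparison. Of 39 tested markers, 2 were called (5.13%, against 13% of all genes), *Cd5* and *Cebpe*, both lower in DEX. The T lineage level changed by -0.084 ± 0.075 and was lower in DEX in 8 of 9 leukemias, and that of the neutrophils changed by -0.33 ± 0.63 and was lower in 6 of 9 (log2(FPKM + 1), SD, n = 9). On this scale the mean over all genes tested was itself lower in 7 of 9. With the TMM scaling of the edgeR fit, 6 of 12 T lineage markers were above 0 and 6 below it, with a median of -0.03, and of 7 macrophage markers 4 were above 0, with a median of 0.04, while 11 of 12 neutrophil and 6 of 7 erythroid markers were below it. In log2(FPKM + 1), the changes of the macrophage and B lineage levels were -0.079 ± 0.24 and -0.15 ± 0.33, and that of the erythroid level -0.28 ± 0.86. The part of these differences in the changes of the autophagy genes was not tested.

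To place the members in their pathway, 122 further genes in 6 lists were examined, of which 111 were tested. Of these, 13 were called (11.7%), 9 higher and 4 lower in DEX, beside 13% of all genes. The median log2 fold change was 0.04, against 0.0039 for all genes tested.

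The largest change was in the list of mTORC1 and AMPK inputs, where 2 of 31 genes rose and 3 fell, against 6.22% and 6.79% of all genes. *Ddit4*, which codes for the mTORC1 inhibitor REDD1 and is a known glucocorticoid target, had 12.5 FPKM in 5C to 62.1 FPKM in 78A in the VEH libraries, with a mean of 35.0 FPKM. In the DEX libraries it had 22.5 FPKM in 5C to 153 FPKM in 73M, with a mean of 96.9 FPKM. It was higher in 9 of 9 leukemias, from 38.6 against 30.9 FPKM in 8633 to 95.0 against 19.4 FPKM in 73A, with a log2 fold change of 1.44, a standard error of 0.19 and an adjusted p of 0.00174 (edgeR).

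*Prkag2*, a regulatory subunit of AMPK, was lower in 8 of 9 leukemias, with means of 5.29 FPKM in VEH and 3.58 FPKM in DEX (log2 fold change -0.51, adjusted p = 0.0115, edgeR). *Rheb*, the GTPase that activates mTORC1, had a change of -0.29 (adjusted p = 0.0218), and *Flcn*, which codes for the mTORC1 regulator folliculin, -0.20 (adjusted p = 0.0225, edgeR), each lower in FPKM in 9 of 9 leukemias. *Sesn1*, an inhibitor of mTORC1 that was named after its value was seen, had 0.37 (adjusted p = 0.0391, edgeR).

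In the list of lysosomal hydrolases and membrane proteins, 4 of 25 genes rose and 0 fell, against 6.22% and 6.79% of all genes, while 2 were lower by the unadjusted p, against 15.7%. The protease gene *Ctsd* had a log2 fold change of 0.36 (adjusted p = 0.0213, edgeR), with means of 65.4 FPKM in VEH and 84.0 FPKM in DEX. The saposin precursor gene *Psap* had 0.21 (adjusted p = 0.0480, edgeR), and both were higher in 8 of 9 leukemias. The median of this list was 0.04.

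In the other lists the calls were single genes, where 6.22% of all genes were called higher and 6.79% lower. *Stx17*, the SNARE that fuses autophagosomes with lysosomes, was called among 23 genes for further machinery and fusion (0.23, adjusted p = 0.0435, edgeR), and *Pink1*, the kinase of mitophagy, among 11 further cargo receptors and their partners (0.39, adjusted p = 0.0407). *Atp6v1h* was lower, at -0.20 (adjusted p = 0.0177, edgeR, lower in 9 of 9), among 15 subunits of the vacuolar ATPase that acidifies the lysosome. Of the 15, 10 had a change below 0 and 5 above it (33.3%, against 50.9% of all genes tested). *Usf2*, a factor that binds E-boxes, was higher among 6 transcription factors (0.28, adjusted p = 0.0298).

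**Figure D5:**
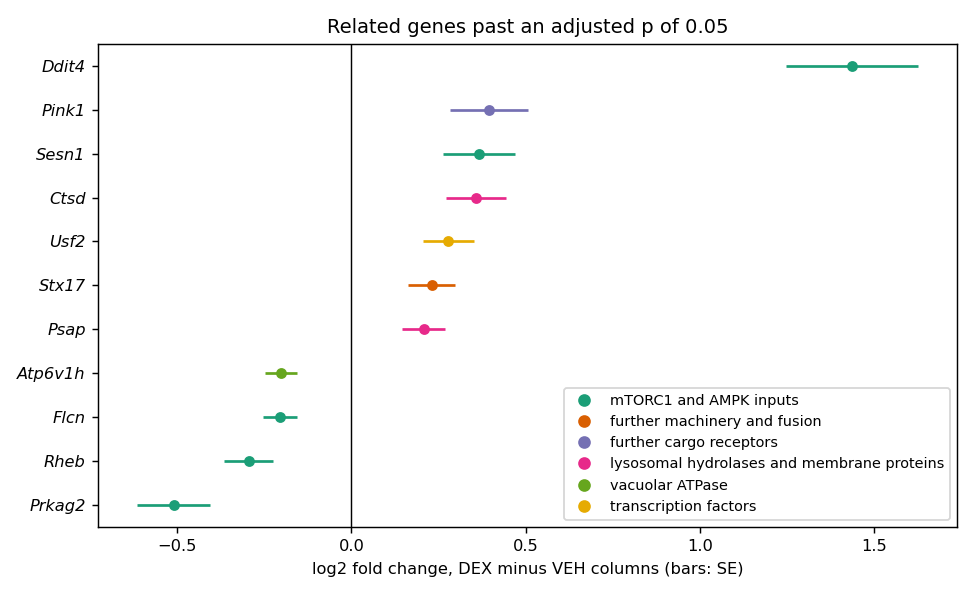
Log2 fold change of DEX minus VEH for 11 of the 13 related genes past an adjusted p of 0.05, with bars for the standard error from edgeR and colours for the lists. *Ddit4* lies apart at 1.44, and the other 10 lie between -0.51 and 0.39.

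Most of these calls depended on which libraries were compared, as did those of genes in general. With the term for ribosomal RNA libraries, 3 of the 13 were called, *Ddit4* and *Prkag2* among them, where 4.1% of all genes were called. Over the 4 leukemias without such libraries it was 2 (*Ddit4* and *Prkag2*), against 4.19%, and over the 5 with them 0, against 0.132%, *Ddit4* then having 1.49 with an adjusted p of 0.0515 (edgeR), while 23 related genes had an unadjusted p under 0.05 there. DESeq2 called 21 of the 111, and 19.1% of all genes. The sign stayed the same for all 13 in these 3 edgeR fits, and the log2 fold changes were 0.72 to 1.07 times the reported ones with the ribosomal RNA term, 0.65 to 1.47 times over the 4 leukemias and 0.60 to 1.26 times over the 5. *Pink1* had 0.26 over the 4 and *Stx17* 0.15 over the 5.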

How the data were processed

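Poly(A) RNA from leukemic marrow was sequenced by the authors, who aligned reads with Bowtie2 to mm10 and quantified them with RSEM. The deposited values are expected counts per gene, not normalized. The 20 value columns were matched to samples by leukemia name, 17 by the whole title. Leukemia 4638, a name that the study's overview of leukemias does not hold, entered only as an alternative.

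FPKM were computed from library totals and merged exon lengths of GENCODE M21, found for 37693 genes (96.6%). Counts were rounded and tested with edgeR 4.0.16 in R 4.3.3 (quasi-likelihood, TMM, Benjamini-Hochberg, threshold 0.05) on genes averaging 1 FPKM or more, with leukemia as a block because the VEH and DEX libraries share it. No label says that libraries are separate animals, so p-values measure the spread between these samples. Intervals from counts cover counting error only. Standard errors follow from the F statistic. Tests were tried on simulated counts. Python 3.11.15 was used for scores.

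The members and lists were chosen with earlier results of these data known. Full values were given for members past the threshold, for the 6 tested members with the largest ratio between leukemias and for up to 4 genes of each related list with the smallest adjusted p. Some genes and the leukemias' genotypes are not reported here. Other genes were named after their values were seen. Alternatives were DESeq2 1.42.0, RLE factors, no filter, no block, 4638 added, a ribosomal RNA term, subsets of leukemias, a pseudocount of 0.1, TPM, the median over members and each leukemia left out.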

Additional observations from a re-analysis of the deposited data

Results flagged for a closer look

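The 9 leukemias were screened for a leukemia far from the others in each gene's level, change and score, 80 sets of 9 values in all. In 11 of them the gap to the nearest leukemia exceeded 0.493 of the whole range, the critical value of Dixon's test. For normally distributed values, chance alone exceeds it in about 1 in 20 sets. The levels were FPKM without a log, and the 80 sets share the same 9 leukemias. The 11 can therefore not be set against that rate.

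Of these, 4 were levels in JW81. *Gabarapl1* had 3.82 FPKM against 0.999 FPKM in the next leukemia, *Map1lc3b* 20.4 against 14.2 FPKM and *Gabarap* 32.5 against 25.6 FPKM. *Atg4b*, which processes these proteins, was lowest there, with 2.88 against 4.01 FPKM in the next. For *Map1lc3b* the distance came from the DEX library of JW81, as its VEH library had 13.2 FPKM.

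Levels in 73A were highest for *Wipi1*, with 1.29 against 0.625 FPKM in 73M, and for *Atg4c*, with 0.479 against 0.187 FPKM in 73M. The macrophage and neutrophil markers were also highest in 73A, at 2.22 and 6.40 (log2(FPKM + 1)). Their part in these levels was not tested. The level of *Optn* in 8633 was 3.01 FPKM, against 1.25 FPKM in 5C.

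The remaining 4 were DEX minus VEH changes of log2(FPKM + 1). In 73M, *Atg16l1* changed by 0.40 against 0.14 in the next leukemia, *Becn1* by 0.28 against 0.08, and *Atg4b* by -0.35 against -0.07. In JW81, *Atg7* changed by 0.37 against 0.11 in the next. The DEX libraries of 73M and JW81 were among those with ribosomal RNA counts. In the same pairs the neutrophil markers changed by -1.18 in 73M and -1.24 in JW81. The erythroid markers changed by -2.33 in 73M and 0.32 in JW81. The part of the ribosomal RNA counts and of these other cells in the changes was not tested.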

How the results depend on the processing

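Across the alternatives for single autophagy genes, 595 results kept their side of the threshold, 9 passed it anew and 8 lost it. The estimate changed sign in 19 of the 595, over 8 genes. Between leukemias, 27 of 34 autophagy genes were called. With 1 library left out it was 21 to 28 (61.8% to 82.4%), where 77.8% to 84.4% of all genes were called, with DESeq2 29 (85.3%, against 86.8%), with no filter 31 of 39 (79.5%, against 46.7%) and with 4638 added 33 of 37 (89.2%, against 87.5%). Without the leukemia as a block, 8 genes were called in all, 0 of them autophagy genes and 0 related genes, beside 1475, 2 and 13 with it, and *Uvrag* had an adjusted p of 0.111. With DESeq2 6 autophagy and 21 related genes were called. With the ribosomal RNA term, these counts were 465 in all, 1 and 3, over leukemias without such libraries 475, 1 and 2, over those with them 15, 0 and 0, and without 73A and 73M 277, 1 and 2. With no filter, 1 autophagy gene was called. With each leukemia left out, 654 to 2041 genes were called, 2 to 6 autophagy genes and 3 to 16 related genes, fewest in all and among related genes without 20M and most in all without 5C. *Ddit4* had an adjusted p of 0.00108 to 0.00798, *Uvrag* 0.00355 to 0.0242 and *Atg9a* 0.0101 to 0.0411. The change of the score became -0.028 with TPM and 0.11 with the median over the members, and its level 3.30 and 2.94, 2.41 with a pseudocount of 0.1, and 3.11 over the members with a mean of at least 1 FPKM. The cause of these differences was not tested. The shallowest library, with 8226528 counts, limits what can be seen of genes under 1 FPKM.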

Other observations

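The study's overview of mutated genes names the 9 leukemias analysed but not 4638, and holds a similar name with 2 digits in the other order. Whether these are the same leukemia is not known, so 4638 was kept out of the comparisons above and added only as an alternative. With it, 1430 genes were called between VEH and DEX, 2 of them autophagy genes. It stood outside the range of the 9 leukemias for 19 of the 39 autophagy genes, above it for 15 and below it for 4 (*Wipi2*, *Becn1*, *Atg14* and *Atg4a*). Of the 34 genes tested it was outside for 14 (41.2%), against 36.3% of all genes tested. *Tfeb* had 3.67 FPKM in its VEH and 3.94 FPKM in its DEX library, against at most 1.47 FPKM in the other libraries. *Wipi1* had 4.02 and 4.52 FPKM, against at most 1.34 FPKM, and *Gabarap* 43.8 and 50.3 FPKM, against at most 33.3 FPKM. The score over the 39 genes was 3.11 in 4638, above 2.66 to 2.89 in the others. The T lineage markers were lower in 4638 than in any of the 9, at 3.54 against 4.37 to 5.77, and the macrophage markers higher, at 3.76 against 1.02 to 2.22, as were the neutrophil markers, at 7.72 against 1.13 to 6.40 (log2(FPKM + 1)). Also higher were the erythroid markers, at 3.91 against 0.302 to 3.07, and the B lineage markers, at 1.88 against 0.084 to 1.07. The part of these other cells in its autophagy gene levels was not tested.

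Among the 122 related genes, some varied between leukemias far more than any autophagy gene, and those named here were chosen after their values were seen. *Deptor*, an inhibitor of mTOR, ran from 0.0319 FPKM in 8633 to 18.5 FPKM in 2M. *Prkaa2*, a catalytic subunit of AMPK, ran from 0.00211 FPKM in 8633 to 3.36 FPKM in 20M. On 1 kilobase of exon, 3 counts would give 0.101 FPKM in the VEH and 0.131 FPKM in the DEX library of 8633. Both low ends lie under these values, so the width of these 2 ranges is uncertain. The lysosomal lipase gene *Lipa* ran from 0.915 FPKM in JW14 to 48.5 FPKM in 20M and the protease gene *Ctsl* from 0.195 FPKM in JW14 to 9.54 FPKM in 2M. Between VEH and DEX libraries, none of them passed the threshold in edgeR, but *Prkaa2* had a log2 fold change of -0.79 with an adjusted p of 0.0594 (edgeR). In 3 of 18 alternative fits *Prkaa2* was called lower in DEX, and its log2 fold change was -0.27 with the ribosomal RNA term, -0.24 over leukemias without such libraries and -1.44 over those with them. Its adjusted p ran from 0.00980 with no filter to 1.00 without the leukemia as a block.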
